A study of Homo sapiens with 6 samples.

Results

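The genes described here are 48 genes of the DNA replication machinery and of nucleotide supply, taken by symbol from a table of 58302 gene entries, and 15063 of those entries were tested. All 48 were found in the table and all 48 passed the filter on low counts, with no fewer than 51 counts in any library. RNA sequencing covered 6 libraries from the Ker-CT line, human skin keratinocytes made immortal by added telomerase and CDK4. In 3 libraries the cells had received siRNA against KMT2C, a histone H3 lysine 4 methyltransferase (siKMT2C), and in 3 a negative-control siRNA (siNC). Both groups were held for 24 h with M5, a mix of 5 cytokines (TNF-α, IL-1α, IL-17A, oncostatin M and IL-22), 10 ng/ml of each, so no value here measures the cytokines' own effect. Nothing in the labels says that replicates came from separate cultures, and p-values then measure only the spread between these libraries, which may be technical. The added CDK4, a kinase that acts on RB, limits the line as a model of how keratinocytes enter S phase. The siRNA sequences and their number were not given in the labels.

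A cell prepares its replication origins in G1, when the origin recognition complex, CDC6 and CDT1 load the ring-shaped MCM2-7 helicase onto DNA, a step called licensing. In S phase CDC45 and the GINS complex join the ring to form the active CMG helicase, DNA polymerases copy the strands behind it, and the sliding clamp PCNA, loaded by replication factor C, holds them in place. Deoxynucleotides come from ribonucleotide reductase and thymidylate synthesis. Many of these genes are targets of the E2F transcription factors, which RB holds back until CDK4 and other kinases phosphorylate it. Psoriatic epidermis, which M5 is used to model, is known for keratinocyte hyperproliferation.

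Promoter sequences are shown for the 3 members that passed the test below and for GINS1 and MCM10, because members that moved together can be compared there for shared letters. All 5 lie on the plus strand. ORC1, on the minus strand, is not shown, although its p-value was below that of MCM10. Each runs from 150 bases before to 30 bases after the first transcription start listed by RefSeq (GRCh38.p14, plus strand, 5′ to 3′). Capitals mark matches on either strand to the E2F consensus (TTTCCCGC, TTTCGCGC, TTTGCCGC or TTTGGCGC), to TTTGGCG, which overlaps the last of these and was chosen after the sequences had been read, or to CCAAT.

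CDC6, chr17:40287729-40287908: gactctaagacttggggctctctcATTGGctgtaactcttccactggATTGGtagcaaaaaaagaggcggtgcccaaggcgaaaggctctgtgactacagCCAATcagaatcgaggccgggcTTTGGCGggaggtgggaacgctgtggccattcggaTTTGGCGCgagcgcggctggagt

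CDC45, chr22:19479770-19479949: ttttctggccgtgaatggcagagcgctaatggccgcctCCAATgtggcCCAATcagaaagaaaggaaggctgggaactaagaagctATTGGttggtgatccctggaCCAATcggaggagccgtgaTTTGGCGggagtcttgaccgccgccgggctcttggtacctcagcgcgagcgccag

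ORC6, chr16:46689509-46689688: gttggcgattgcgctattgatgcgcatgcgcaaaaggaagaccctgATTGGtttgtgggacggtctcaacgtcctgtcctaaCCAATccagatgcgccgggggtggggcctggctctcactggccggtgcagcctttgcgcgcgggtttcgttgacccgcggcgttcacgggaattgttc

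GINS1, chr20:25407523-25407702: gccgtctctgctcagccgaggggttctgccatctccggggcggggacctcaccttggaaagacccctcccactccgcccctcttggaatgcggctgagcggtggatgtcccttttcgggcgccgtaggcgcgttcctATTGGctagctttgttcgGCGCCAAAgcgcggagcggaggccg

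MCM10, chr10:13161408-13161587: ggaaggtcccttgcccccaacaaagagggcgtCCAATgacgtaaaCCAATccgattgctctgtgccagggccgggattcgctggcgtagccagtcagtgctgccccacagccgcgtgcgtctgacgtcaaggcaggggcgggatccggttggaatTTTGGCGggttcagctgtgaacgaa

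CDC6 holds TTTGGCG at 28 bases before the start and TTTGGCGC at 8 bases after it, CDC45 holds TTTGGCG at 25 bases before the start, and MCM10 holds it at 6 bases after the start. GINS1 carries the opposite-strand form of TTTGGCGC just after its start. ORC6 has only a pair of CCAAT matches, which says no more than that the other letters are not in this window. Of 42 members with an entry in the RefSeq promoter table, 21 held an E2F consensus match in the 300 bases from 250 before to 50 after the first listed start, against 3.33% of 27303 promoters of that length. TTTGGCG was in 13 of 42 (31.0%, against 1.92%) and CCAAT in 26 of 42 (61.9%, against 35.7%). A match is a description of letters and not a bound site. Members with an E2F consensus or TTTGGCG match ran from -0.10 to 0.90 in log2 fold change (25 genes, median 0.36), and those without from -0.09 to 0.91 (17 genes, median 0.27). The ranges of the 2 sets were nearly the same. Of members not shown, ORC1 (0.79) and RRM2 (0.74) were among the 17 without a match, and POLE2 (0.74) and GINS2 (0.72) among the 25 with one. CDC45 has 3 listed starts, and only the first is shown.

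The libraries held 14409277 to 17539519 counts. KMT2C itself was at 32.0, 30.8 and 27.3 CPM (counts scaled to a common TMM-adjusted library size) in siKMT2C and 87.9, 82.0 and 72.6 CPM in siNC, with no overlap between groups (log2 fold change -1.43, SE 0.14, edgeR adjusted p = 0.00786). All 10 keratinocyte markers were tested, 8 had negative log2 fold changes and none was called by edgeR (2 were at an unadjusted p under 0.05, DESeq2 called 2 and limma-voom none). DESeq2 called TP63 (-0.69, SE 0.20) and ITGA6 (-0.51, SE 0.11), both lower and without overlap. The 10 markers summed to 17219 to 23782 CPM in siKMT2C and 17899 to 27083 CPM in siNC. Fibroblast markers summed to 12.7 to 16.5 CPM in siKMT2C and 20.3 to 30.4 CPM in siNC over 6 genes, most of it COL1A1, and the part of such cells in the results was not tested. COL1A1 (-0.77, SE 0.19) and DCN (-1.57, SE 0.32) were lower without overlap. Both were called by DESeq2 and with an offset for GC content and length, and neither by edgeR or limma-voom. The leukocyte genes PTPRC and CD3E, the endothelial genes PECAM1 and CDH5 and the melanocyte genes TYR and DCT were at 0 in every library. Other genes of these lists had counts. The leukocyte list summed to 13.2 to 14.7 CPM in siKMT2C and 9.90 to 14.9 CPM in siNC, most of it CD68. CD14 was low and did not overlap between groups (log2 fold change -2.23, SE 0.43, edgeR adjusted p = 0.0534). The melanocyte genes MLANA and PMEL averaged 1.22 and 1.12 CPM in siKMT2C and 0.916 and 1.34 CPM in siNC. Libraries also differed in how counts followed GC content: over 15022 genes of one library, the correlation of a gene's deviation from its own mean with transcript GC was 0.58 in siNC replicate 3, 0.25 in siKMT2C replicate 3 and between -0.34 and -0.11 in the others. Over the 48 members it was 0.53 in siNC replicate 3, 0.33 in siKMT2C replicate 3 and between -0.52 and -0.09 in the others. The part of this GC relation in the results was examined only by the offset reported below.

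Most replication genes had higher values in siKMT2C, by modest amounts. Log2 fold changes of siKMT2C over siNC were above 0 for 45 of the 48 members and their median was 0.33, where 49.7% of all genes tested were positive with a median of 0.00. CDC6, ORC6 and CDC45 rose, each to between 1.84 and 1.88 times the control level, and no member fell (edgeR quasi-likelihood test, adjusted p under 0.05). DESeq2 called 9 members higher (2.68% of all genes were), limma-voom the same 3 as edgeR (0.704% of all genes), and neither called a member lower. The 3 called by edgeR are 6.25% of the members, where 0.690% of all genes tested were called higher and 1.50% were called in either direction. At an unadjusted p under 0.05 there were 18 members, all higher (37.5%, where 7.91% of all genes were higher at that level). In 22 members the lowest siKMT2C library lay above the highest siNC library (45.8%, against 11.8% of all genes), and in none did the groups separate the other way. In bulk RNA a larger share of cells in S phase and more of these transcripts per cell cannot be told apart.

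**Figure D1:**
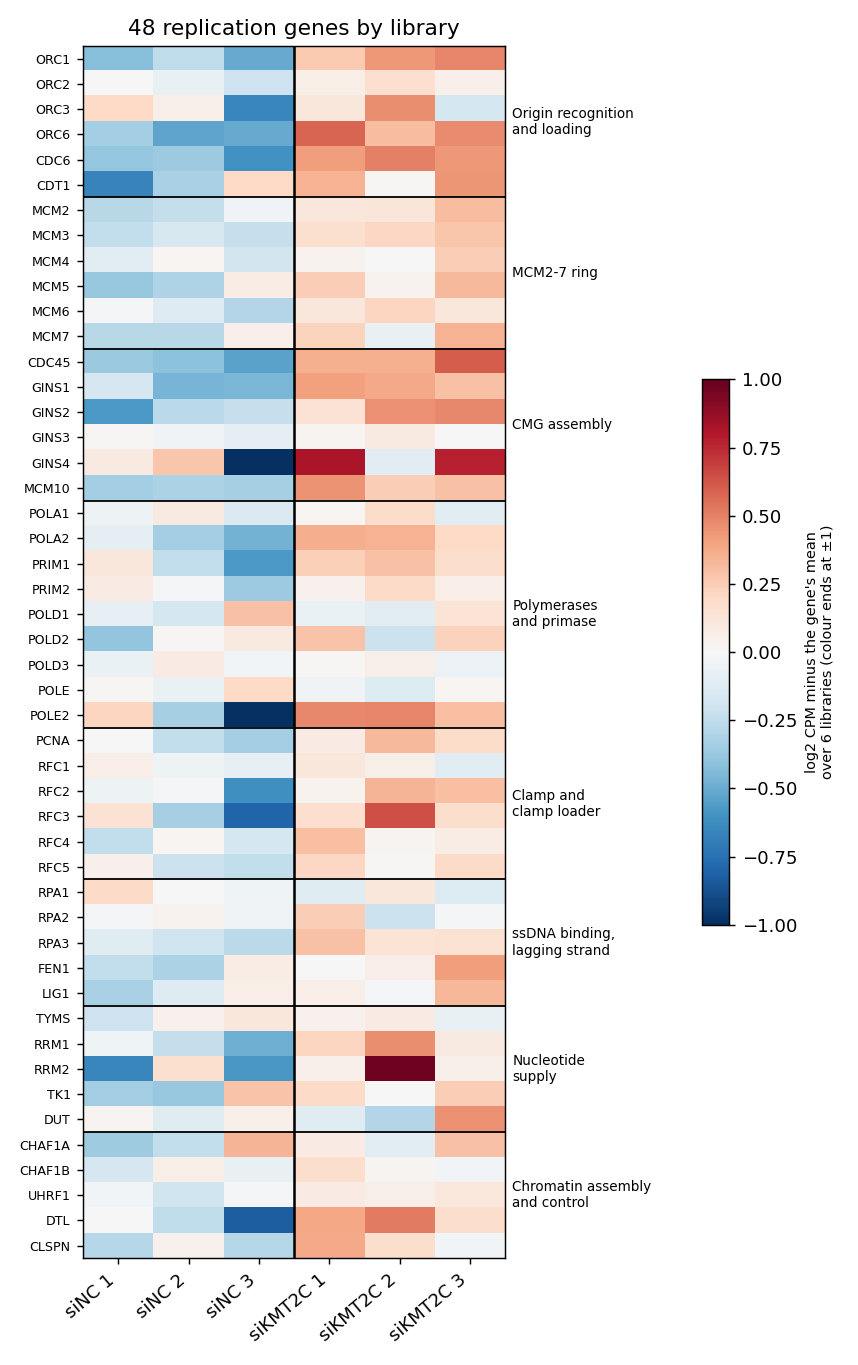
Log2 CPM of each of the 48 members (rows, grouped by role) in each library (columns), minus the gene's mean over the 6 libraries, with red above and blue below the mean. The siKMT2C columns are mostly red and the siNC columns mostly blue, and GINS4 and POLE2 in siNC replicate 3 lie beyond the colour scale. Rows with a log2 fold change near or below 0 do not follow the pattern, RPA1, POLE, POLD1, TYMS, POLD3 and RPA2 among them.

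The shift was present in each library rather than in 1 alone. Averaged over the 48 members, the siKMT2C libraries had centred log2 CPM values (each gene's mean set to 0) of 0.19, 0.17 and 0.20, and the siNC libraries of -0.15, -0.15 and -0.26. The siKMT2C libraries were close together and siNC replicate 3 was the lowest of the 6. The number of members above their own mean was 44, 38 and 39 in the siKMT2C libraries and 13, 12 and 12 in the siNC libraries. The order of role groups by median log2 fold change was CMG assembly (0.72), origin recognition and loading (0.64), the MCM2-7 ring (0.35), clamp and clamp loader (0.33), nucleotide supply (0.26), single-strand binding and lagging-strand maturation (0.25), polymerases and primase (0.19), and chromatin assembly and replication control (0.16). Differences between role groups were not tested, since genes are not replicates.

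**Figure D2:**
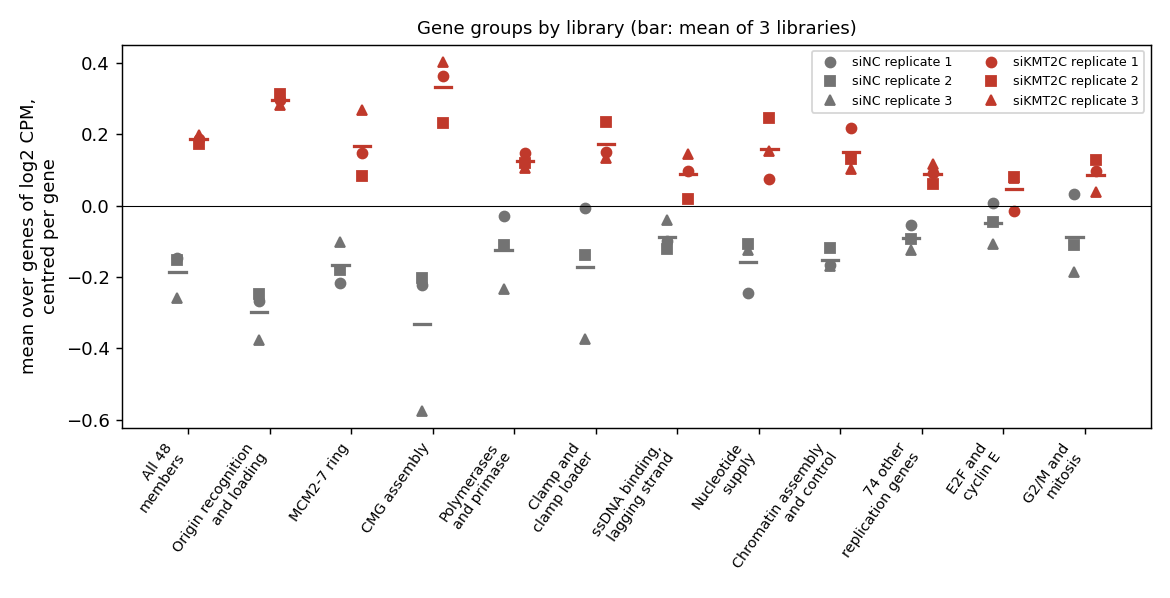
Mean over the genes of each group of log2 CPM centred per gene (vertical axis), by library, with siNC in grey, siKMT2C in red, a marker shape per replicate number and a bar at the mean of 3 libraries. Over all 48 members the siKMT2C libraries lie between 0.17 and 0.20 and the siNC libraries between -0.26 and -0.15, and the group means differ most for CMG assembly (0.67 apart) and for origin recognition and loading (0.59 apart). For CMG assembly siNC replicate 3 lies at -0.58 and the other siNC libraries at -0.22 and -0.20. Its mean includes GINS4, which was at 2.87 CPM in siNC replicate 3.

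Among the 6 genes that mark and license origins, CDC6 and ORC6 rose and all had positive values. CDC6 (ENSG00000094804, chromosome 17, 40287633 to 40304657, GRCh38), the ATPase that works with the origin recognition complex to load MCM2-7, was at 58.6, 61.9 and 59.2 CPM in siKMT2C. In siNC it was at 33.5, 34.0 and 28.7 CPM. The groups were far apart for CDC6, and it rose by 0.90 (SE 0.13, 95% interval 0.60 to 1.21, edgeR adjusted p = 0.0263). ORC6 (ENSG00000091651, chromosome 16, 46689643 to 46698394), the smallest subunit of the origin recognition complex, was at 24.8, 20.5 and 23.0 CPM in siKMT2C and 13.1, 11.5 and 11.7 CPM in siNC. Again no siKMT2C library came near the controls, and ORC6 rose by 0.91 (SE 0.15, 95% interval 0.56 to 1.27, edgeR adjusted p = 0.0347).

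ORC1, the large ATPase subunit, was at 9.17, 10.3 and 10.7 CPM in siKMT2C and 5.72, 6.44 and 5.41 CPM in siNC. The groups did not overlap, yet ORC1 missed the threshold (log2 fold change 0.79, SE 0.17, edgeR adjusted p = 0.0709). Of the other complex members, ORC2 had a log2 fold change of 0.19 (SE 0.13) without overlap, and ORC3 one of 0.25 (SE 0.25) with overlap. CDT1, the partner of CDC6 in loading, was at 30.1, 24.0 and 32.1 CPM in siKMT2C and 14.9, 18.9 and 27.1 CPM in siNC. Its groups overlapped through siNC replicate 3 (log2 fold change 0.50, SE 0.24, edgeR adjusted p = 0.338). CDT1 is among the most GC-rich members at 64.9% of transcript bases, and with an offset for GC content and length its value was 0.64 (SE 0.10, edgeR adjusted p = 0.0127). The offset did not raise every member: ORC6 was then at 0.83 (SE 0.12) and ORC3 at 0.14 (SE 0.16), while CDC6 was at 0.91 (SE 0.08).

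None of the 6 genes of the MCM2-7 ring was called by edgeR or limma-voom, 3 were at an unadjusted p under 0.05 in edgeR, and DESeq2 called MCM3. All 6 genes of the ring, the motor of the helicase, had positive values in a narrow band from 0.18 (MCM4) to 0.43 (MCM3). MCM3 was at 76.1, 78.7 and 82.6 CPM in siKMT2C and 57.4, 61.0 and 58.1 CPM in siNC. Its libraries did not overlap and were tight within each group, but the change was not called (SE 0.12, edgeR adjusted p = 0.123). MCM2 was at 53.8, 54.2 and 61.5 CPM in siKMT2C and 41.0, 42.2 and 48.7 CPM in siNC, again without overlap (0.36, SE 0.14, edgeR adjusted p = 0.230). MCM6 (0.29, SE 0.13) also did not overlap between groups. MCM5 (0.39, SE 0.17), MCM7 (0.33, SE 0.16) and MCM4 did overlap. The authors' FPKM values are fragments scaled to a gene length and to library size. The lengths used were not given, and the order of different genes in FPKM depends on them. In CPM, which is not scaled to length, MCM4 was the highest of the 6 in siKMT2C, at 111 on average, and it was at 9.41 FPKM. In FPKM the 6 subunits lay within 2.93-fold of each other in siKMT2C and 3.14-fold in siNC. They ran from MCM5 at 6.96 ± 0.759 to MCM6 at 20.4 ± 0.605 FPKM in siKMT2C (SD, n = 3). The same subunits were lowest and highest in siNC, at 5.39 ± 0.969 and 17.0 ± 1.59 FPKM.

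The factors that turn the loaded ring into the CMG helicase differed among themselves more. CDC45 (ENSG00000093009, chromosome 22, 19479459 to 19520612) was at 14.7, 14.8 and 17.5 CPM in siKMT2C and 8.93, 8.65 and 7.94 CPM in siNC. It rose by 0.88 (SE 0.16, 95% interval 0.51 to 1.25, edgeR adjusted p = 0.0452), with every siKMT2C library above every control. GINS1, a subunit of the 4-protein GINS complex, was at 51.9, 50.6 and 47.9 CPM in siKMT2C and 34.8, 28.3 and 28.4 CPM in siNC. It lay just short of the threshold (0.72, SE 0.14, edgeR adjusted p = 0.0541). GINS2 was at 11.6, 14.4 and 14.6 CPM in siKMT2C and 7.04, 8.72 and 8.95 CPM in siNC, and MCM10, which helps to activate the helicase, at 14.4, 12.5 and 12.8 against 8.30, 8.44 and 8.33 CPM. Neither GINS2 (0.72, SE 0.18, edgeR adjusted p = 0.104) nor MCM10 (0.66, SE 0.15, edgeR adjusted p = 0.0823) was called, though neither overlapped between groups.

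GINS3 showed little difference, at 8.32, 8.67 and 8.17 CPM in siKMT2C and 8.24, 7.96 and 7.60 CPM in siNC (0.08, SE 0.16). The ratio of GINS1 to GINS3 in FPKM was 14.9, 14.0 and 14.1 in siKMT2C and 10.1, 8.52 and 8.96 in siNC. The ratio was higher in every siKMT2C library. This pair was chosen after its values were seen. GINS4 was erratic, at 18.2, 9.57 and 17.7 CPM in siKMT2C and 11.0, 12.5 and 2.87 CPM in siNC. The groups overlapped, and its value of 0.79 (SE 0.49) was 0.36 (SE 0.29) without siNC replicate 3.

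**Figure D3:**
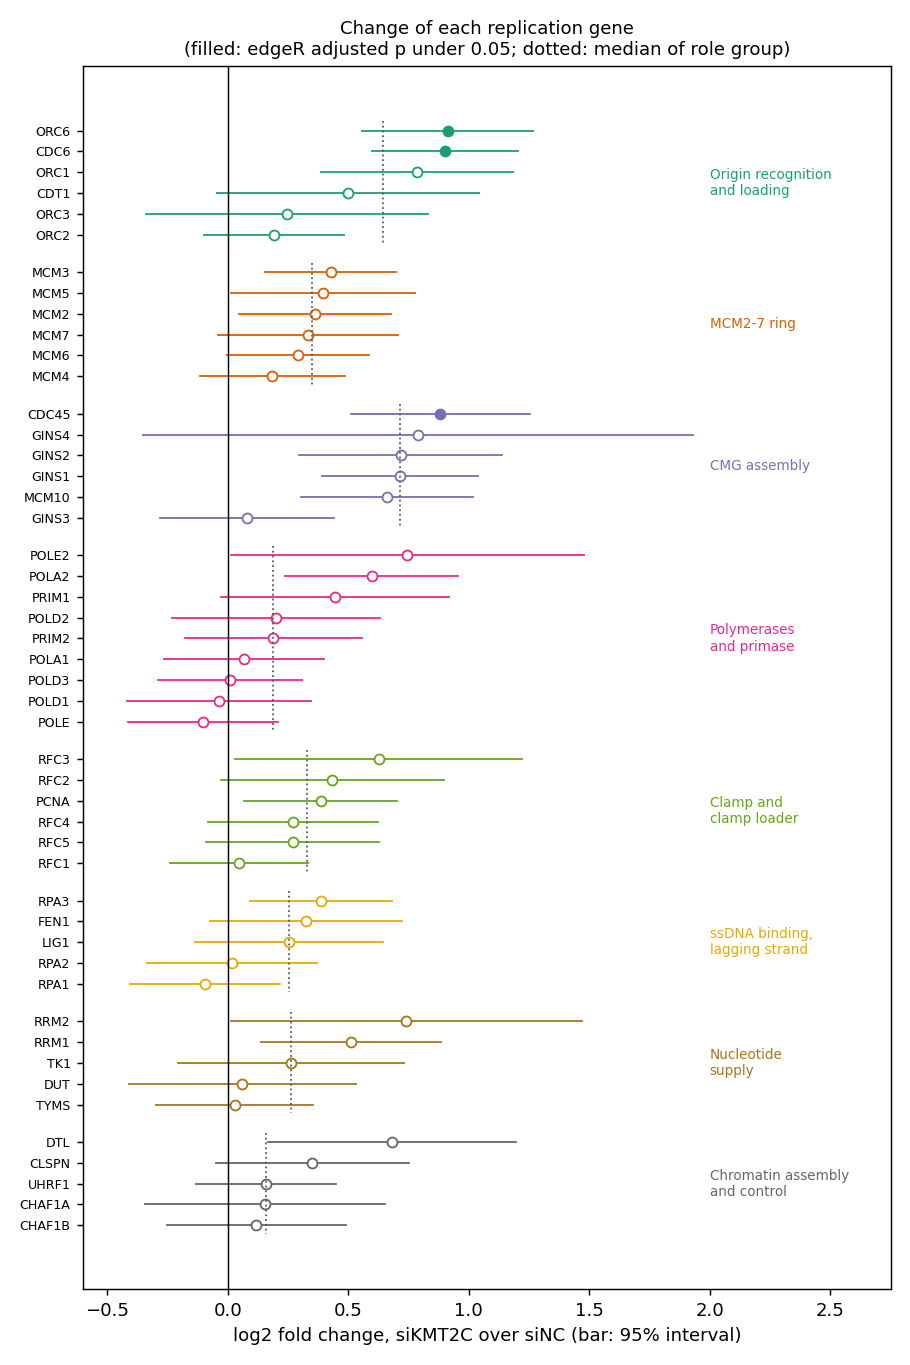
Log2 fold change of siKMT2C over siNC (horizontal axis) for each member, by role group, with its 95% interval. Filled points mark the 3 members called by edgeR (CDC6, ORC6 and CDC45), dotted lines mark the median of each role group, and only POLD1, POLE and RPA1 lie below 0.

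None of the 9 polymerase and primase genes was called by edgeR (2 were at an unadjusted p under 0.05, DESeq2 called POLA2 and limma-voom none). The catalytic subunits of polymerases alpha, delta and epsilon had values near 0: POLA1 had a log2 fold change of 0.07 (SE 0.14, 95% interval -0.26 to 0.40), POLD1 of -0.04 (SE 0.17, 95% interval -0.42 to 0.35) and POLE of -0.10 (SE 0.13, 95% interval -0.41 to 0.21). POLA2, the second subunit of polymerase alpha, was at 26.7, 26.5 and 23.9 CPM in siKMT2C and 19.5, 16.4 and 15.0 CPM in siNC. That is a difference without overlap that was not called (0.60, SE 0.16, edgeR adjusted p = 0.108). POLE2, the second subunit of polymerase epsilon, was at 8.87, 8.93 and 7.86 CPM in siKMT2C and 7.38, 5.05 and 2.87 CPM in siNC (0.74, SE 0.32, edgeR adjusted p = 0.287). As a level per length, the FPKM ratio of POLA2 to POLA1 was 0.875, 0.776 and 0.853 in siKMT2C and 0.670, 0.511 and 0.553 in siNC, and that of POLE2 to POLE was 1.20, 1.30 and 1.03 against 0.973, 0.702 and 0.332. Both ratios were higher in every siKMT2C library, and these pairs too were chosen after their values were seen, so no test is given. Of 5 such pairs computed, ORC6 to ORC2 also did not overlap between groups (0.426, 0.327 and 0.400 against 0.237, 0.218 and 0.244), while RRM1 to RRM2 did (3.83, 2.40 and 3.47 against 5.21, 2.59 and 3.64). Of polymerase delta, the second subunit POLD2 (0.20, SE 0.19) and the accessory subunit POLD3 (0.01, SE 0.13) overlapped between groups. The primase genes PRIM1 (0.45, SE 0.20) and PRIM2 (0.19, SE 0.16) were not called. In GENCODE 29, 17 of the 48 members overlap another tested gene, none of CDC6, ORC6 and CDC45 among them, and reads in the overlap may have been shared. PRIM1, CHAF1B and FEN1 lie on the same strand as the more abundant NACA (212 CPM on average), MORC3 (88.8 CPM) and FADS2 (64.4 CPM), and RFC4 and RFC5 lie opposite EIF4A2 (238 CPM) and WSB2 (113 CPM), so the levels of these members are uncertain. With the GC and length offset POLD1 (0.08) and POLE (0.02) had positive values. In that fit POLE2 (0.65), PRIM1 (0.33) and PRIM2 (0.0850) were lower than without the offset, and POLA2 (0.64) was higher.

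None of the 6 clamp and clamp loader genes was called by edgeR, DESeq2 or limma-voom, and 2 were at an unadjusted p under 0.05 in edgeR. PCNA, the sliding clamp, was by far the most abundant member per length, at 106 ± 8.01 FPKM in siKMT2C and 82.4 ± 10.0 FPKM in siNC (SD, n = 3). In CPM it was at 178, 211 and 191 in siKMT2C and 168, 142 and 133 in siNC, without overlap (0.39, SE 0.14, edgeR adjusted p = 0.207). The clamp loader genes were 3.17 to 9.98 FPKM in siKMT2C. RFC3, a small loader subunit, was at 26.5, 36.9 and 26.6 CPM in siKMT2C and 26.1, 18.7 and 13.5 CPM in siNC (0.63, SE 0.26, edgeR adjusted p = 0.271), where siNC replicate 1 almost met the siKMT2C libraries. RFC2 (0.43, SE 0.20), RFC4 (0.27, SE 0.15) and RFC5 (0.27, SE 0.16) were not called either. RFC1, the large subunit, had a value of 0.05 (SE 0.12). With the GC and length offset each of the 6 had a smaller value, PCNA (0.27, SE 0.09), RFC3 (0.52, SE 0.16) and RFC4 (0.16, SE 0.13) among them.

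**Figure D4:**
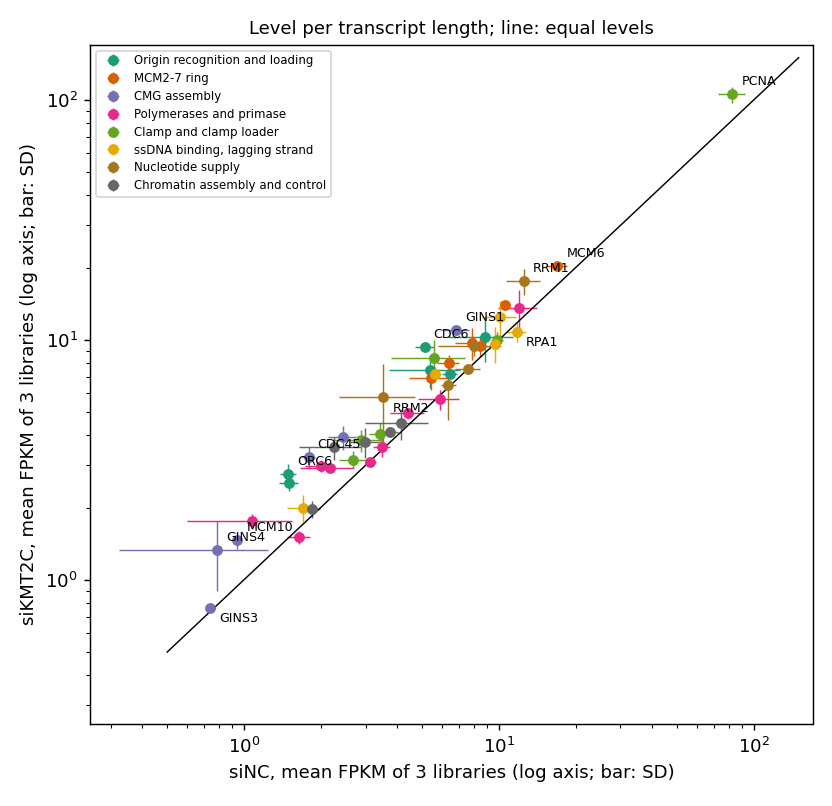
Mean FPKM of the 3 siKMT2C libraries (vertical, log axis) against that of the 3 siNC libraries (horizontal, log axis) for the 48 members, coloured by role, with SD bars and the line of equal levels. Most points lie above the line, PCNA is the highest at 106 against 82.4 FPKM, and GINS3 and GINS4 are at the low end.

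The 5 genes of single-strand binding and lagging-strand maturation had no call by edgeR, DESeq2 or limma-voom, and 1 was at an unadjusted p under 0.05 in edgeR. Of the single-strand binding complex that coats unwound DNA, RPA3 was at 43.6, 39.3 and 39.6 CPM in siKMT2C and 32.8, 31.1 and 29.7 CPM in siNC, without overlap (0.39, SE 0.13, edgeR adjusted p = 0.179). RPA1 (-0.09, SE 0.13) and RPA2 (0.02, SE 0.15) overlapped between groups. For RPA1 the 95% interval of the log2 fold change was -0.40 to 0.22, which does not hold the fitted values of CDC6 or ORC6. The flap nuclease FEN1 was at 42.9, 44.8 and 57.1 CPM in siKMT2C and 36.2, 34.3 and 45.1 CPM in siNC (0.32, SE 0.17), and both replicate 3 libraries were the highest of their group. LIG1, which seals Okazaki fragments, was also highest in replicate 3 of each group, with 20.8, 19.7 and 24.9 CPM against 15.9, 18.1 and 20.8 CPM (0.25, SE 0.17). Without siKMT2C replicate 3 the values were 0.19 for FEN1 and 0.15 for LIG1.

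In nucleotide supply the highest values were those of the ribonucleotide reductase genes, and none of the 5 was called by edgeR, DESeq2 or limma-voom (2 at an unadjusted p under 0.05 in edgeR). RRM1, the large subunit of the reductase, was at 143, 170.1 and 131 CPM in siKMT2C and 119.5, 104 and 87.9 CPM in siNC, without overlap (0.51, SE 0.16, edgeR adjusted p = 0.165). RRM2, the small subunit, was at 46.3, 87.6 and 46.6 CPM in siKMT2C and 28.4, 49.8 and 29.8 CPM in siNC (0.74, SE 0.32, edgeR adjusted p = 0.288). In both groups replicate 2 held the highest RRM2 level, and siNC replicate 2 exceeded 2 of the siKMT2C libraries. The value was 0.37 without siKMT2C replicate 2 and 1.04 without siNC replicate 2. Thymidylate synthase TYMS was at 34.1, 35.1 and 31.5 CPM in siKMT2C and 28.7, 34.2 and 35.9 CPM in siNC (0.03, SE 0.14, 95% interval -0.30 to 0.35). TYMS also overlaps ENOSF1 on the opposite strand, and without strand information reads of the 2 genes may be shared. The salvage kinase TK1 (0.26, SE 0.20) and the dUTPase gene DUT (0.06, SE 0.20) overlapped between groups.

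The 5 genes of chromatin assembly and replication control also had no call by these tools, with 1 at an unadjusted p under 0.05 in edgeR. Among them, DTL, the adaptor of the ubiquitin ligase that removes CDT1 during S phase, was at 30.8, 33.8 and 26.7 CPM in siKMT2C and 23.7, 19.9 and 13.3 CPM in siNC (0.68, SE 0.22, edgeR adjusted p = 0.176). Its groups did not overlap. UHRF1, which guides maintenance DNA methylation at the fork, was at 42.4, 41.6 and 43.1 CPM in siKMT2C and 39.3, 34.8 and 39.7 CPM in siNC, a difference that is small though without overlap (0.16, SE 0.13). The histone chaperone subunits CHAF1A (0.15, SE 0.22) and CHAF1B (0.12, SE 0.16) overlapped between groups. The checkpoint adaptor CLSPN (0.35, SE 0.17) overlapped between groups.

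The calls of the 3 genes that rose were lost in most fits that left out 1 library. CDC6, ORC6 and CDC45 were called without siNC replicate 3 (together with GINS1, 4 members in all, where 1.71% of all genes were called higher) and in none of the 5 other fits that left out 1 library, with edgeR adjusted p from 0.0168 to 0.142 for CDC6, 0.0333 to 0.196 for ORC6 and 0.0454 to 0.178 for CDC45. In those 5 fits 0.0389% to 0.143% of all genes were called higher, against 0.690% with all libraries. The log2 fold changes of the 3 genes were between 0.80 and 0.99 in the fits that left out 1 library. With the offset for GC content and length, 14 members were called higher (29.2% of the members, where 4.50% of all genes were), namely CDC6, ORC6, ORC1, CDT1, CDC45, GINS1, GINS2, MCM10, MCM2, MCM3, MCM5, MCM7, RRM1 and DTL. The 9 called by DESeq2 were the same 3 with ORC1, GINS1, GINS2, MCM10, MCM3 and POLA2. No polymerase catalytic subunit was called in any of these fits.

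Genes of the same pathways outside the 48 had a smaller median, and whether they differ from the members was not tested. Of 74 further genes of origin firing, the replisome, nucleotide synthesis, histone chaperones and the replication checkpoint, 57 were positive with a median of 0.20. Of the 74, edgeR called 1 higher (1.35%, where 0.690% of all genes were called higher and 1.50% in either direction). It was the histone chaperone NASP, at 81.0, 71.4 and 81.8 CPM in siKMT2C and 49.2, 45.4 and 47.2 CPM in siNC (0.72, SE 0.13, edgeR adjusted p = 0.0370). Like the 3 members, NASP was called in 1 of the 6 fits that left out a library, the one without siNC replicate 3. Of 30 replisome and origin-firing genes 23 were positive (median 0.13), with the smallest p-values for GMNN, the CDT1 inhibitor geminin (0.59, SE 0.13), DSCC1 of an alternative clamp loader (0.79, SE 0.19), TIPIN of the fork protection complex (0.83, SE 0.21) and the topoisomerase TOP1 (-0.26, SE 0.11). None of the 30 was called by edgeR or limma-voom, and 3 were at an unadjusted p under 0.05 in edgeR, all higher (10.0%, against 7.91% of all genes). DESeq2 called GMNN, DSCC1 and TIPIN higher, where it called 2.68% of all genes higher. Of 28 nucleotide genes 23 were positive (median 0.26), with UMPS (0.49, SE 0.12), which makes UMP, CTPS1 (0.39, SE 0.12), which makes CTP, and IMPDH2 (0.31, SE 0.12), which leads to GMP, among the smallest p-values. None of the 28 was called by edgeR or limma-voom, and DESeq2 called UMPS, higher. In edgeR 7 were at an unadjusted p under 0.05, 6 of them higher (21.4%, against 7.91% of all genes). SAMHD1, which degrades deoxynucleotides, had a negative value, at 155, 155 and 180.5 CPM in siKMT2C and 244, 255 and 198 CPM in siNC (-0.51, SE 0.14, edgeR adjusted p = 0.126). Its groups did not overlap, and it was called lower without siNC replicate 3 and with the offset for GC content and length. With that offset 4 of the 28 were called higher and 2 lower. Of 7 histone chaperone genes 6 were positive, SUPT16H (0.52, SE 0.11) among them. Of 9 checkpoint genes 5 were positive with a median of 0.04, and WEE1 (-0.44, SE 0.16), a kinase that restrains CDKs, had the smallest p-value. With the GC and length offset 3 of the 30 replisome and origin-firing genes and 2 of the 7 histone chaperone genes were called, all higher. No checkpoint gene was called in that fit, where 4.50% of all genes were called higher.

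Regulators of S-phase entry and mitotic genes had medians below that of the members. Of 20 E2F and cyclin E control genes 11 were positive (median 0.08) and none was called by edgeR, with 4 at an unadjusted p under 0.05: SKP2 (0.84, SE 0.25) and TFDP1 (0.57, SE 0.21) with positive values and the CDK inhibitors CDKN1B (-0.52, SE 0.13) and CDKN1A (-0.37, SE 0.12) with negative ones. Over all genes tested, 2548 of 15063 were at that level in either direction, a share near that of these 4 of 20, and 1.50% were called. Of the 20, 10.0% were higher at that level, against 7.91% of all genes. DESeq2 called SKP2 higher and CDKN1B lower (864 of 15063 genes were called by it in either direction), and limma-voom called none. With the GC and length offset CDKN1B alone was called, lower, where 632 of 15063 genes were called lower. CDKN1B was at 38.1, 36.0 and 42.5 CPM in siKMT2C and 54.1, 54.3 and 59.2 CPM in siNC, without overlap. Of 32 G2/M and mitosis genes 25 were positive (median 0.21) and none was called by edgeR, with CDC25B, a phosphatase that activates CDK1, at -1.04 (SE 0.21) and 5 genes at an unadjusted p under 0.05. Those 5 of 32 are also near the share of all genes given above, and 12.5% of the 32 were higher at that level. DESeq2 called CDC25B lower, as did edgeR without siNC replicate 3, and limma-voom called none. With the GC and length offset CDC25B was called lower and CENPF higher. Whether these lists differ from the 48 members was not tested.

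Several members start close to another gene. In GENCODE 29, 16 members had a tested protein-coding neighbour on the opposite strand that starts within 1 kb. The neighbours had a median log2 fold change of -0.03 and 6 of 16 were positive, where 49.7% of all genes tested were. None was called, but only 1.50% of all genes were, so a lack of calls among 16 genes says little. The 16 members beside them had a median of 0.33, and whether they differ from their neighbours was not tested. ORC6 faces VPS35, an endosomal sorting gene whose start lies 125 bases away and whose level was 209, 233 and 187 CPM in siKMT2C and 276, 246 and 198 CPM in siNC (-0.20, SE 0.16). CDC45 faces UFD1, a protein degradation gene 244 bases away, at 57.7, 56.7 and 54.3 CPM against 49.7, 50.8 and 47.1 CPM (0.19, SE 0.12). UFD1 did not overlap between groups and VPS35 did, and both values were below those of CDC45 and ORC6. ORC1 faces PRPF38A, a splicing gene, which had the opposite sign without overlap (-0.39). CDC6 had no tested coding neighbour by this rule.

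**Figure D5:**
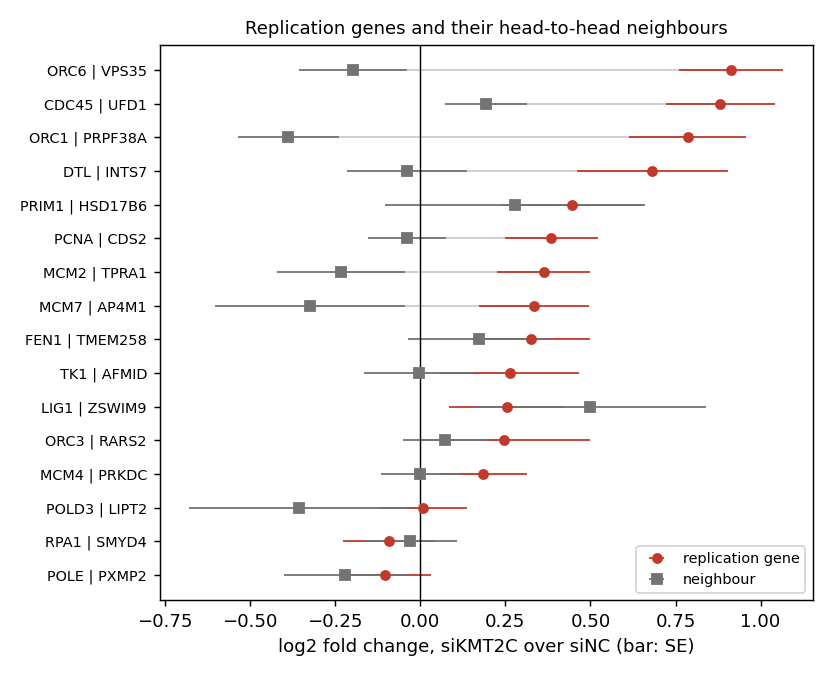
Log2 fold change of siKMT2C over siNC with SE bars (horizontal axis) for 16 replication genes (red circles) and the gene that starts within 1 kb on the opposite strand (grey squares), 1 pair per row. The replication genes of the upper rows, from ORC6 at 0.91 downwards, lie to the right of their neighbours, whose median is -0.03, and only LIG1 and RPA1 lie to the left of theirs.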

How the data were processed

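Counts and FPKM of 6 libraries came from 1 table the authors deposited, holding raw whole-number counts and FPKM for each gene per the file headers. CASAVA 1.8 and TopHat2 2.0.6 are the tools named by the submitters' processing notes. The build given there, mm10, is of mouse although identifiers are human, and was set aside. For the counter, annotation, human build and strandedness the answer is: not given in the sources used here. A SMARTer mRNA kit made the libraries, per the labels' protocols. Symbols came from a gene name table and coordinates from GENCODE 29 (GRCh38), not from the authors' build.

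Counts were tested with edgeR 4.0.16 in R 4.3.3: filterByExpr defaults, TMM scaling, robust quasi-likelihood F test of siKMT2C against siNC, Benjamini-Hochberg adjustment over 15063 genes, called at adjusted p under 0.05. SE is the absolute log2 fold change over the square root of F. The step was tried on simulated counts, without a GC trend or with a trend in a single library. The data here had GC relations in several libraries, so that check does not cover them, and its outcome is not given here. Centred log2 CPM used a prior count of 2. FPKM compared levels between genes, on gene lengths that were not given. Alternatives were RLE, library size alone, no filter, a minimum CPM of 1 in any 3 libraries, DESeq2 1.42.0, voom in limma 3.58.1, a replicate block, a loess offset for GC content and length of the longest transcript (span 0.3), both together, and leaving out libraries. Figures used matplotlib 3.10.9.

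The members, the role groups and the other gene lists were chosen with earlier results of these data known. Genes named are KMT2C, all members, called genes of the other lists with at most 4 of the smallest p-values each, and head-to-head neighbours of called members. The neighbour of ORC1 and the genes that overlap members were named outside this rule, after their values were seen.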

Additional observations from a re-analysis of the deposited data

How the results depend on the processing

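Whether replicate numbers pair the libraries is not stated in the labels and was left unresolved. Deviations of same-numbered libraries correlated at 0.0195, 0.107 and 0.389, and the last, for replicate 3, was the highest of all pairs. The replicate 3 libraries were also those with a positive relation to GC content. By contrast, siKMT2C replicate 1 correlated best with siNC replicate 2 (0.0315) and siKMT2C replicate 2 with siNC replicate 1 (0.318). Member calls were 3 with RLE, library size alone, no filter, the CPM minimum and limma-voom, 9 with DESeq2, 11 with the replicate block, 14 with the GC and length offset and 16 with that offset and the replicate block, all higher. The block called RRM2 (0.72, adjusted p = 0.0145), as did offset and block (0.69, adjusted p = 0.0138). Over all genes the calls were 864 with DESeq2 (404 higher, 460 lower), 968 with the block (456 and 512), 1310 with the offset (678 and 632), 1291 with offset and block (696 and 595) and 648 without replicate 3 of either group (291 and 357), an alternative chosen after seeing the data in which CDC6 and ORC6 were called and CDC45 was not (0.74, adjusted p = 0.0590). Leaving out 1 library gave 16 to 620 calls (6 to 262 higher, 10 to 358 lower) and 0 to 4 member calls. KMT2C ran from -1.51 to -1.36 in these fits, was -1.25 with the offset, and was not called without siKMT2C replicate 1 or 2 or siNC replicate 2 (adjusted p = 0.0634, 0.0507 and 0.0593).

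Leave-one-out medians ran from 0.57 to 0.74 for origin loading, 0.0651 to 0.22 for polymerases, 0.15 to 0.34 for lagging-strand genes, 0.15 to 0.40 for nucleotide supply and 0.16 to 0.29 for chromatin genes. With the offset, and with offset and replicate block, medians were 0.71 and 0.71 for origin loading, 0.0850 and 0.0867 for polymerases and 0.24 and 0.24 for chromatin genes. Without replicate 3 of either group they were 0.0769 for polymerases, 0.45 for nucleotide supply and 0.28 for chromatin genes. Of 25 members with a log2 fold change over 0.3, 8 moved by over 1.5 times when some library was left out (CDT1, FEN1, GINS4, POLE2, PRIM1, RFC2, RFC3 and RRM2), and all 25 kept a positive value in those 6 fits. Signs turned in 7 members with values near 0. With the offset, and with offset and block, they were 0.0805 and 0.0867 for POLD1, -0.0421 and -0.0370 for POLD3, 0.0247 and 0.0277 for POLE, -0.0601 and -0.0718 for RPA2, -0.0370 and -0.0351 for TYMS and -0.0360 and -0.0746 for DUT. With library size alone they were -0.0193 for POLD3, -0.00790 for RPA2 and -0.000455 for TYMS, and without replicate 3 of either group 0.0331 for POLD1 and -0.17 for DUT. Leave-one-out ranges were -0.00604 to 0.14 for POLA1, -0.13 to 0.11 for POLD1, -0.0219 to 0.0504 for POLD3, -0.11 to 0.12 for RPA2, -0.0618 to 0.0869 for TYMS and -0.19 to 0.21 for DUT. The cause was not tested. Only 3 libraries a group limit the precision of every value here.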
